A study of Rattus norvegicus with 8 samples.

Results

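The genes described are those of the cytosolic ribosome, taken as every gene whose symbol on the array begins with Rpl (proteins of the large subunit) or Rps (proteins of the small subunit), with the Rps6k kinases left out. They were 74 of the 14506 genes measured, 46 with an Rpl symbol and 28 with an Rps symbol, and were read by 262 of the 29214 probe sets of the array, of which 15310 carried a single gene symbol. A gene with several probe sets was given their mean. Membership used names alone, so 6 of the 74 are not core ribosomal proteins or are near copies of one, namely Rpl22l1, Rpl36al1, Rpl37l1, Rpl17-ps16, Rps4y2 and the binding protein Rps19bp1. Of 77 symbols listed as core ribosomal proteins, 68 had a member gene, so the set is not the whole ribosome.

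The study asked whether inhibitors of histone deacetylases (HDACI), the enzymes that remove acetyl groups from histones and other proteins, lessen hypersensitivity after nerve injury in rats, and the arrays addressed which transcripts of the cord differed with the drug. HDACI rats received MS-275, an inhibitor of class I deacetylases, into the intrathecal space from an osmotic pump at 30 nmol per day. Vehicle rats received the solvent, DMSO in saline, and both groups of adult male Wistar rats had the same transection of the L5 spinal nerve. RNA of the dorsal lumbar cord on the injured side, taken on day 14, was hybridized to 4 arrays per group, which the study's methods describe as biological replicates. There was no uninjured group, so every comparison is between injured rats with and without the drug. The treatment field of the labels names MS-275 for all samples, and the groups were taken from the titles. In bulk tissue, fewer cells of a type and less RNA per cell cannot be told apart.

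A ribosome is built from ribosomal RNA and one copy of most of these proteins, so a cell makes the proteins in matched amounts. Their mRNAs are among the most abundant in any tissue and share a start known as the 5′ terminal oligopyrimidine (TOP) tract, a C at the cap followed by a run of pyrimidines, through which mTOR signalling and the binding protein LARP1 set how much of the mRNA is translated and kept. In neurons, ribosomes also work in dendrites and axons, and local protein synthesis in sensory pathways has been tied to pain sensitization.

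The annotated starts of many of the genes, though not all, show a sequence of that kind. RefSeq promoters of the rat assembly GRCr8 were matched to 61 of the 74 genes, and the windows printed run from 15 bases before the annotated start to 15 bases from it, 5′ to 3′ on the transcript strand, with the longest run of pyrimidines (C or T) in each window in capitals. The 6 genes with the smallest p values below are shown first, then Rplp1 of the stalk, and then 3 genes whose signal was not higher with HDACI.
Rpl23 (chr10:83272170-83272199, minus strand): actaaCTTCCTTTCTgactctttccggacg
Rps15 (chr7:10068101-10068130, minus strand): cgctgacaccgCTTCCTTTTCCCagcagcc
Rps14 (chr18:56498245-56498274, plus strand): cccttccgTCTCTCTCTTTCCggtggagga
Rps19 (chr1:89608673-89608702, plus strand): cccgacttgtgcgcccgggaaaCCCCgtcg
Rpl36 (chr9:1533765-1533794, plus strand): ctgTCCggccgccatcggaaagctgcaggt
Rpl37a (chr9:81748076-81748105, plus strand): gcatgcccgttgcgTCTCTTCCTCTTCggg
Rplp1 (chr8:71290858-71290887, minus strand): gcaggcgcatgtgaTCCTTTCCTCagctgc
Rps2 (chr10:14251833-14251862, plus strand): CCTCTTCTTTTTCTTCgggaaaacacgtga
Rpl10 (chrX:157205835-157205864, plus strand): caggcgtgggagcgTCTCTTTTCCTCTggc
Rpl22l1 (chr2:113683181-113683210, plus strand): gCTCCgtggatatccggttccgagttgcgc

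Runs of 10 to 13 pyrimidines lay at or next to the annotated start of Rpl23, Rps15, Rps14, Rpl37a and Rplp1. Rpl10, which was not higher with HDACI, had a run of 13 in the same place, and Rps2 one of 16. The windows of Rps19 and Rpl36 held no run longer than 4. Over all 61 genes, a run of 8 or more pyrimidines lay within 20 bases of the start in 45 (73.8%), against 15.5% of the 33469 rat promoters in the table. A C with at least 4 pyrimidines after it stood at the annotated start itself, as a TOP tract would, in 23 (37.7%), against 2.63%, and began within 5 bases of it in 37 (60.7%), against 17.0%. The letters CTTTCC, which are themselves part of such a run, were found on the transcript strand within 20 bases of the start in 18 genes (29.5%), against 1.73% of promoters, and on either strand in 19 (31.1%), against 3.48%. CTTCCG, which shares its first letters with pyrimidine runs, was there in 8 (13.1%), against 1.94%, and TATAAA in 1 (1.6%), against 0.717%. A match is a description of the letters and not a site.

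With HDACI the ribosomal protein genes lay slightly above vehicle as a group. The log2 fold change, HDACI over vehicle, was above 0 for 68 of the 74 genes (91.9%), against 42.1% of all genes measured, and its median was 0.071, against -0.014 over all genes. The quartiles of the members were 0.032 and 0.098, against -0.061 and 0.035 over all genes. The differences were small, and the range ran from -0.094 for Rpl22l1 to 0.20 for Rpl23, which is a 1.15-fold higher signal.

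**Figure D1:**
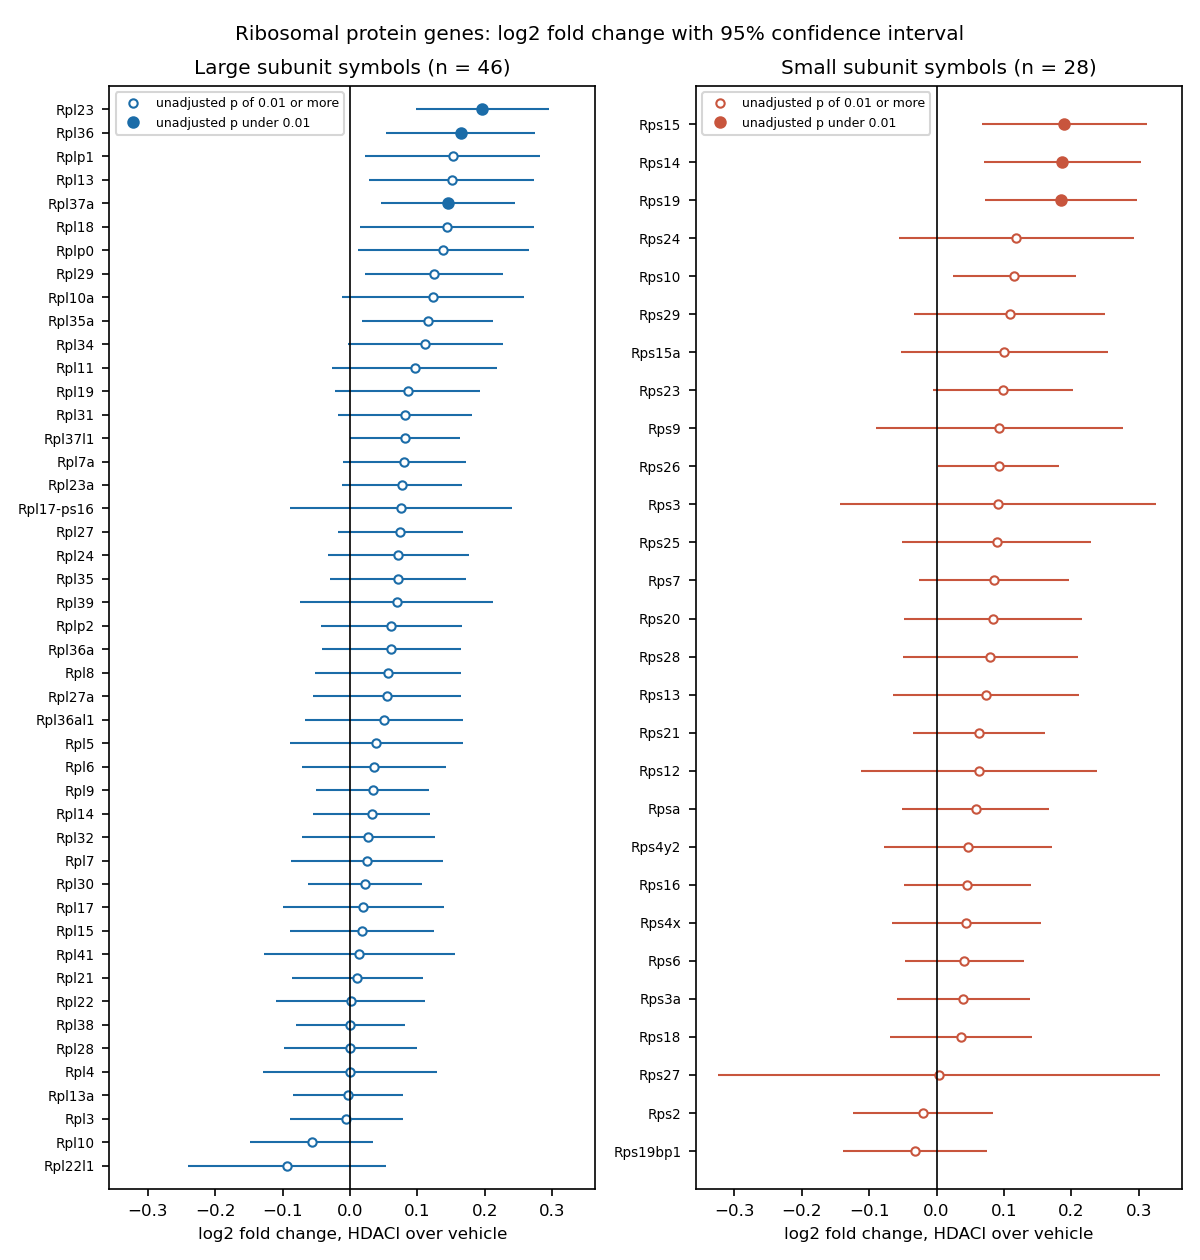
Log2 fold change of each ribosomal protein gene, HDACI over vehicle, with its 95% confidence interval from limma, for 46 large subunit symbols (left) and 28 small subunit symbols (right), 4 arrays per group. Filled points mark the 6 genes with an unadjusted p under 0.01. Of the 74 points, 68 lie right of 0, and the lowest is Rpl22l1 at -0.09.

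**Figure D2:**
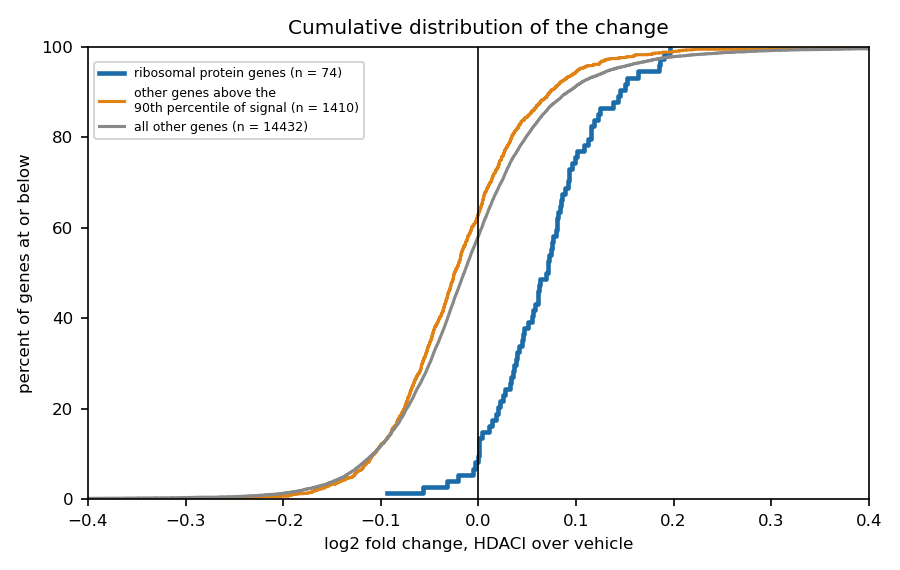
Percent of genes at or below each log2 fold change, HDACI over vehicle, for the 74 ribosomal protein genes, the 1410 other genes above the 90th percentile of signal and all 14432 other genes between -0.4 and 0.4. The curve of the ribosomal protein genes lies to the right of the other curves for most of its length, with a median of 0.071.

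The test used for single genes was limma's moderated test, two-sided, with the study's threshold of an unadjusted p under 0.01. At it, 6 of the 74 genes were higher with HDACI, where 0.607% of all genes were, and 0 were lower, where 0.855% of all genes were. The 6 were Rpl23, Rps15, Rps14, Rps19, Rpl36 and Rpl37a. At an unadjusted p under 0.05 there were 14 higher (2.79% of all genes) and 0 lower (4.96%). No member passed adjustment over all 14506 genes by the Benjamini-Hochberg method, the lowest adjusted p being 0.610, and neither did any other of these genes. When all 29214 probe sets of the array were fitted, 1 passed an adjusted p of 0.05, and it was not a member. The study likewise reports a single gene at that level, a mitochondrial transfer RNA. All 4 HDACI arrays lay above all 4 vehicle arrays for 15 members, against 1.42% of all genes, and below them for 0, against 3.6%. In an exact two-sided permutation test of 4 arrays against 4, a gene without overlap has p = 0.0286, the smallest this design can give.

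Rpl23, a protein of the large subunit at its interface with the small one that also binds Mdm2, was the member with the smallest p. Its log2 signal was 9.22, 9.33, 9.20 and 9.21 on HDACI arrays 1 to 4, against 9.05, 9.05, 9.07 and 8.99 on vehicle arrays 1 to 4. The groups did not overlap, with HDACI array 2 highest and vehicle array 4 lowest. The log2 fold change was 0.20 ± 0.04 (SE, n = 4 per group; limma, unadjusted p = 0.00139, adjusted p = 0.610), and Rpl23 stayed under 0.01 when any single array was left out, with unadjusted p values of 0.00259 to 0.00416 in limma.

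The other large subunit genes under 0.01 were Rpl36 and Rpl37a, the second of which carries a zinc finger. Rpl36 had a log2 signal of 11.69, 11.75, 11.69 and 11.67 on the HDACI arrays, against 11.58, 11.56, 11.58 and 11.41 on the vehicle arrays. Rpl37a had 11.85, 11.93, 11.88 and 11.86 on the HDACI arrays, against 11.77, 11.80, 11.70 and 11.66 on the vehicle arrays. In both genes HDACI array 2 was the highest and vehicle array 4 the lowest, and for Rpl36 vehicle array 4 stood well below the other vehicle arrays, which were close together. Their log2 fold changes were 0.16 ± 0.05 (limma, unadjusted p = 0.00809) for Rpl36 and 0.15 ± 0.04 (limma, unadjusted p = 0.00917) for Rpl37a. Leaving out any 1 of the 8 arrays took Rpl36 past 0.01, with p up to 0.0225, and 7 of the 8 did so for Rpl37a, with p up to 0.0276.

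In the small subunit, the genes under 0.01 were Rps15, needed in human cells for the late steps that bring the precursor of the small subunit to the cytoplasm, Rps14, whose loss of one copy underlies the anaemia of the human 5q- syndrome, and Rps19, the gene most often mutated in human Diamond-Blackfan anaemia. Rps15 had a log2 signal of 11.83, 11.91, 11.91 and 11.91 on the HDACI arrays, against 11.78, 11.78, 11.66 and 11.58 on the vehicle arrays. HDACI array 1 lay apart from the other HDACI arrays and just above vehicle arrays 1 and 2. The log2 fold change of Rps15 was 0.19 ± 0.05 (limma, unadjusted p = 0.00656).

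Rps14 had a log2 signal of 10.13, 10.33, 10.28 and 10.17 on the HDACI arrays, against 10.05, 10.04, 10.08 and 9.996 on the vehicle arrays, with a log2 fold change of 0.19 ± 0.05 (limma, unadjusted p = 0.00545). Here the HDACI arrays were spread and the vehicle arrays close together. Rps19 had 10.02, 10.03, 9.96 and 9.99 on the HDACI arrays, against 9.87, 9.88, 9.83 and 9.69 on the vehicle arrays, with a log2 fold change of 0.18 ± 0.05 (limma, unadjusted p = 0.00479). The vehicle arrays of Rps19 were the more spread, with array 4 the lowest. Leaving out single arrays took Rps15 and Rps14 past 0.01 in 5 of 8 cases each and Rps19 in 4 of 8, with unadjusted p values up to 0.0199, 0.0184 and 0.0137 in limma.

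**Figure D3:**
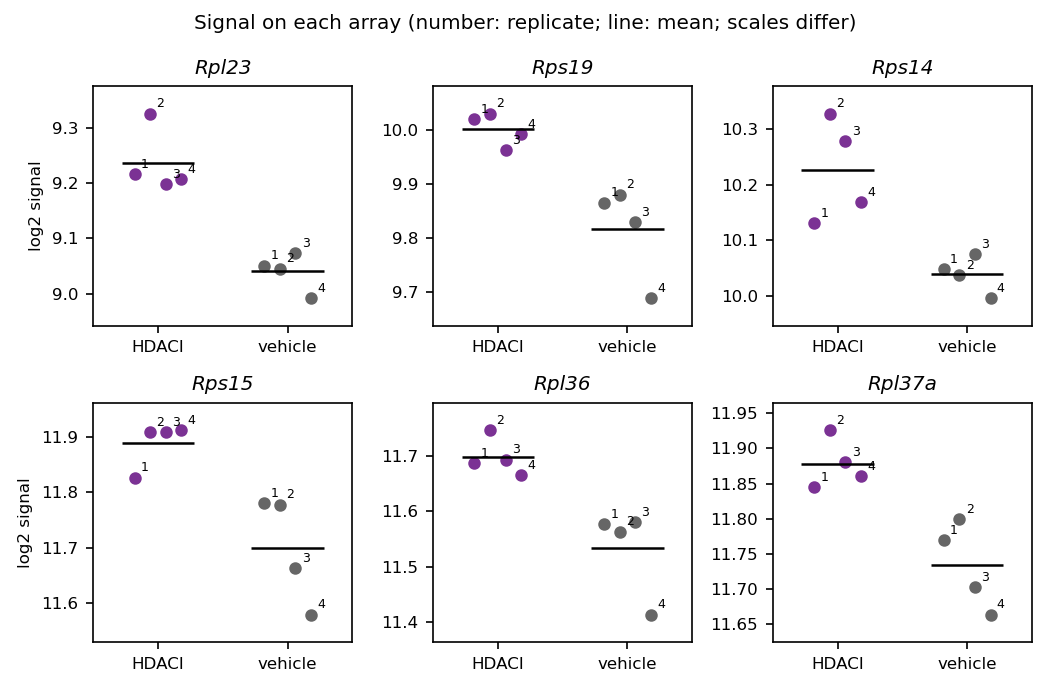
Log2 signal on each array for the 6 genes with an unadjusted p under 0.01, HDACI left and vehicle right, with the replicate number beside each point, a line at the mean and a separate vertical scale per gene. In all 6 the 4 HDACI arrays lie above the 4 vehicle arrays, and vehicle array 4 is the lowest point.

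The count of 6 changed with each array left out. It was 1 without HDACI array 2, 2 without HDACI array 3, HDACI array 4, vehicle array 3 or vehicle array 4, 3 without vehicle array 1, and 4 without HDACI array 1 or vehicle array 2. The count of genes lower with HDACI was 0 each time. The share of all genes under 0.01 was not counted in these fits, and the 0.607% above is for all 8 arrays. The count without overlap went the other way, since fewer arrays overlap more seldom, and was 26 without vehicle array 1 and 23 without HDACI array 3. The share of all genes without overlap was not counted in these fits, and the 1.42% above is for all 8 arrays. The counts of 26 and 23 therefore have no background beside them. The number of members above 0 was 61 to 68 of 74 over the same 8 fits, against 41.5% to 43.6% of all genes.

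The other genes without overlap, apart from Rplp1 and Rpl18, were singled out for that separation after their values were seen. They were Rpl29, Rpl35a, Rps10, Rps26, Rpl31, Rpl23a and Rpl37l1, with log2 fold changes of 0.077 for Rpl23a to 0.12 for Rpl29. Rpl37l1, Rpl23a and Rpl31 were not under 0.05 (limma, unadjusted p = 0.0509, 0.0836 and 0.0961). The groups of Rpl23a barely separated, with HDACI array 3 at 11.889 and vehicle array 3 at 11.886. Rpl23a and Rpl31 sit at the exit of the tunnel through which the new chain leaves, where the signal recognition particle docks. Rps26 lies where mRNA leaves the small subunit, and Rps10, Rps26 and Rpl35a are also mutated in human Diamond-Blackfan anaemia. Rpl18 had a log2 signal of 11.54, 11.61, 11.56 and 11.56 on the HDACI arrays, against 11.52, 11.49, 11.41 and 11.27 on the vehicle arrays (log2 fold change 0.14 ± 0.06; limma, unadjusted p = 0.0332). Here the HDACI arrays were close together, the vehicle arrays spread, and HDACI array 1 just above vehicle array 1.

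The stalk of the large subunit, which draws the elongation factors to the ribosome, is made of Rplp0 at its base and Rplp1 and Rplp2 as its arms. Rplp1 had a log2 signal of 11.61, 11.77, 11.58 and 11.65 on the HDACI arrays, against 11.55, 11.58, 11.46 and 11.41 on the vehicle arrays (log2 fold change 0.15 ± 0.06; limma, unadjusted p = 0.0265). HDACI array 3 lay only just above vehicle array 2. Rplp0 had 10.65, 10.78, 10.71 and 10.77 on the HDACI arrays, against 10.66, 10.67, 10.53 and 10.49 on the vehicle arrays, so that its groups overlapped (0.14 ± 0.06; limma, unadjusted p = 0.0360). Rplp2 overlapped more widely, with a log2 fold change of 0.061 ± 0.046 (limma, unadjusted p = 0.218).

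Rpl5 and Rpl11, which bind 5S ribosomal RNA and, when free of the ribosome, hold Mdm2 away from p53, did not pass either threshold. Their log2 fold changes were 0.039 ± 0.057 for Rpl5 and 0.096 ± 0.054 for Rpl11 (limma, unadjusted p = 0.512 and 0.111). Rpl5 ran against most members on vehicle array 4, where it was highest of all 8 arrays at 10.87, against 10.62 to 10.74 on the other vehicle arrays and 10.73 to 10.79 on the HDACI arrays. Rps6, the classic substrate of the S6 kinases, had a log2 fold change of 0.041 ± 0.039 (limma, unadjusted p = 0.317), with 12.46, 12.52, 12.52 and 12.45 on the HDACI arrays and 12.48, 12.42, 12.42 and 12.46 on the vehicle arrays. HDACI arrays 1 and 4 lay within the range of the vehicle arrays.

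Below 0 were 6 genes, none under 0.05. Rpl22l1, a paralog that can take the place of Rpl22 in mice, had the lowest value, with a log2 signal of 7.67, 7.54, 7.57 and 7.46 on the HDACI arrays, against 7.60, 7.81, 7.63 and 7.57 on the vehicle arrays (log2 fold change -0.09 ± 0.07; limma, unadjusted p = 0.185). The groups overlapped, with HDACI array 1 second highest of the 8. Rpl22 itself was at 0.001. Rpl10, among the last proteins to join the large subunit, had 11.64, 11.63, 11.61 and 11.61 on the HDACI arrays, against 11.63, 11.64, 11.70 and 11.74 on the vehicle arrays (-0.06 ± 0.04; limma, unadjusted p = 0.189), with vehicle arrays 3 and 4 above all others.

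The remaining genes below 0 were Rps19bp1 (-0.032), which encodes a protein that binds Rps19 and in human cells activates the deacetylase Sirt1 and is not a subunit, Rps2 (-0.020), which lines the mRNA entrance of the small subunit, Rpl3 (-0.0055), near the peptidyl transferase centre, and Rpl13a (-0.0034), which in human monocytes leaves the ribosome to silence inflammatory mRNAs. Rpl4, Rpl28 and Rpl38 lay within 0.001 of 0. Of these 10 lowest genes, Rpl22, Rpl28, Rpl38, Rpl4, Rpl3, Rpl13a and Rps2 took the other sign under at least 1 other processing or left-out array. Rps4y2, named as a Y-linked relative of Rps4x although its matched promoter lies on chromosome 4, was at 0.046 ± 0.056 and Rps4x at 0.044 ± 0.049.

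The subunits were compared next. Of the large subunit genes 42 of 46 were above 0, with a median of 0.061, and of the small subunit genes 26 of 28, with a median of 0.082. Higher under 0.01 were 3 of 46 large and 3 of 28 small subunit genes, against 0.607% of all genes. Higher without overlap were 10 of 46 and 5 of 28, against 1.42% of all genes. The mean change of the large subunit minus that of the small was -0.016, with an SD of 0.037 between arrays, so the gap between subunits was smaller than the spread of the arrays, and without vehicle array 4 it was 0.0043.

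To show the arrays behind these averages, each gene was centred on its mean over the 8 arrays and the genes of a subunit were averaged. For the large subunit this gave 0.031, 0.056, 0.0027 and 0.033 on HDACI arrays 1 to 4, against -0.0052, -0.034, -0.018 and -0.066 on vehicle arrays 1 to 4, with no overlap. For the small subunit it gave 0.013, 0.083, -0.00057 and 0.060 on the HDACI arrays, against 0.027, -0.0072, -0.039 and -0.14 on the vehicle arrays. Here vehicle array 1 lay above HDACI arrays 1 and 3. The SD of the large subunit mean was 0.022 among HDACI arrays and 0.026 among vehicle arrays, and that of the small subunit mean 0.039 among HDACI arrays and 0.070 among vehicle arrays. Without vehicle array 4, which was lowest for both subunits, the median change was 0.048 for the large subunit and 0.044 for the small. Without both HDACI array 2 and vehicle array 4, a choice made after these values were seen, the median over all members was 0.036, with 58 of 74 above 0 and 1 gene, Rpl23, under 0.01.

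**Figure D4:**
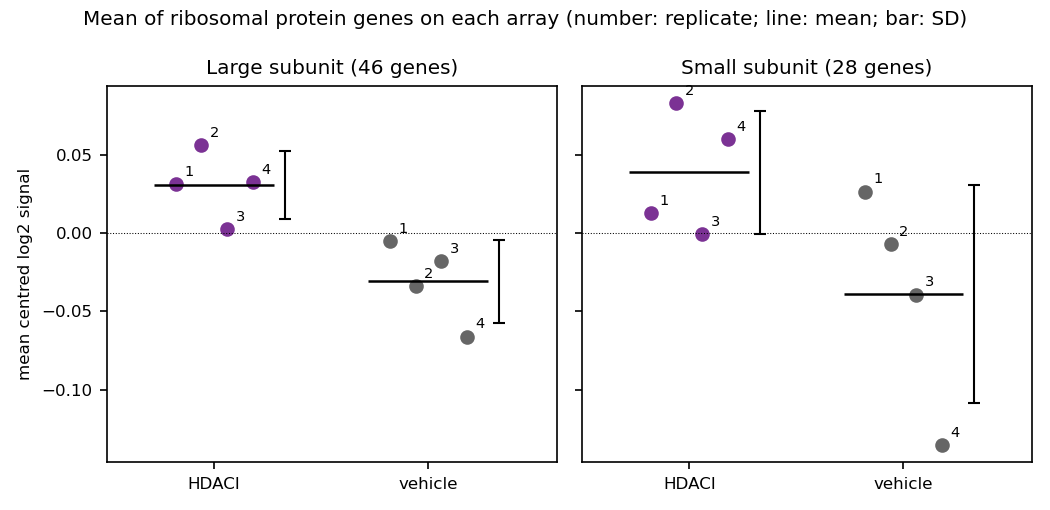
Mean centred log2 signal of the 46 large subunit genes (left) and 28 small subunit genes (right) on each array, HDACI left and vehicle right in each panel, with replicate numbers, a line at the group mean and a bar of 1 SD (n = 4). The groups are separate for the large subunit and overlap for the small, and vehicle array 4 is lowest in both at -0.066 and -0.14.

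Genes were also counted in place of averaged. On HDACI arrays 1 to 4, 52, 62, 37 and 61 of the 74 members lay above their own mean, against 41, 19, 20 and 13 on vehicle arrays 1 to 4. HDACI array 3 was thus below vehicle array 1. Once the group means were removed, the first principal component held 55.3% of the members' remaining variance, against 44.2% over all genes and 50.9% over genes above the 90th percentile of signal. It held 46.2% in the large subunit and 63.8% in the small. A member's SD within groups had a median of 0.061, against 0.060 for genes above the 90th percentile of signal, where 41 of the 74 members lay, and 0.087 for all genes.

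The members are bright, so they were also set beside other bright genes. Of the 74, 41 were above the 90th percentile of mean signal, and 37 of these were above 0, with a median of 0.070. Of the 1410 other genes in that range 37.0% were above 0, with a median of -0.024. Under 0.01, 3 members and 7 other genes were higher (0.689% of all genes in that range), and 0 members and 19 other genes were lower (1.31%).

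Many members were read more than once. Among them 19 of 74 (25.7%) had a single probe set, against 96.7% of the 14432 other genes, and Rpl21 had 21. Ribosomal protein genes have many processed pseudogenes in mammals, and probe sets that share a symbol may read the gene, a near copy of it or both, which the annotation does not tell apart. The 262 probe sets held 254 distinct sets of values, and 15 had values identical to those of another. Taken singly, 233 of the 262 (88.9%) were above 0, against 43.8% of all probe sets, 13 were higher at an unadjusted p under 0.01, against 0.681%, and 0 were lower, against 0.616%. None passed adjustment over the array, with a lowest adjusted p of 0.716 in limma, against 0.00342% of all probe sets. At an unadjusted p under 0.05, 61 were higher, against 2.88%, and 0 were lower, against 3.82%. Without overlap, 69 were higher, against 1.74%, and 1 was lower, against 2.82%, a probe set of Rpl10 with 12.69, 12.74, 12.69 and 12.70 on the HDACI arrays and 12.75, 12.74, 12.77 and 12.87 on the vehicle arrays.

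In most genes the probe sets lay close together. All 10 of Rpl36 lay between 0.14 and 0.21, all 5 of Rps19 between 0.14 and 0.22, and all 3 of Rps14 between 0.18 and 0.19. The 13 of Rpl7a, a gene picked here for its number of probe sets, lay between 0.037 and 0.11, and the 9 of Rps2 between -0.036 and -0.011. In 11 of the 55 genes with more than 1 probe set the signs differed (Rpl4, Rpl5, Rpl13a, Rpl21, Rpl22, Rpl28, Rpl31, Rpl38, Rpl41, Rps3 and Rps21). The 2 probe sets of Rps3, a protein of the mRNA entry channel, were at -0.0046 ± 0.048 and 0.19 ± 0.19, so that the gene's value of 0.091 came from the second, whose log2 signal ran from 7.34 on vehicle array 4 to 8.30 on HDACI array 4. Rpl13, with a gene value of 0.15 ± 0.05 (limma, unadjusted p = 0.0210), had 6 probe sets between 0.11 and 0.13 and 1 at 0.31 ± 0.17. Rpl28 had 2 probe sets at 0.059 and 1 at -0.12.

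**Figure D5:**
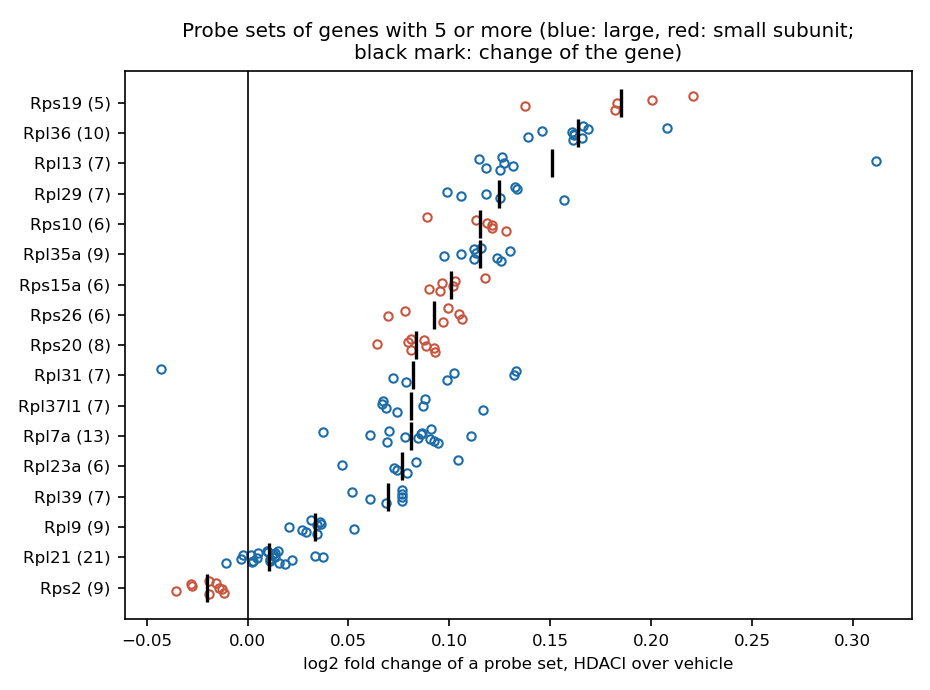
Log2 fold change, HDACI over vehicle, of each probe set of the ribosomal protein genes with 5 or more probe sets (number in parentheses), blue for the large and red for the small subunit, with a black mark at the gene's own change. Most genes form tight groups, all 9 probe sets of Rps2 lie left of 0, and Rpl13 and Rpl31 each have 1 probe set far from the others.

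By promoter, the 37 genes with a C and 4 or more pyrimidines within 5 bases of the annotated start had a median log2 fold change of 0.080, with 36 above 0, and the 24 without had 0.048, with 19 above 0. That sequence was found in 22 of 37 large subunit and 15 of 24 small subunit promoters. The 24 without it held the non-core or near-copy members Rpl22l1 (-0.094), Rps19bp1 (-0.032) and Rpl36al1, and the 37 with it held Rps4y2. Rps2 and Rpl13a, both below 0, also counted as without it, although their windows held runs of 16 and 14 pyrimidines. The split thus depends in part on membership by name and on the annotated start. This is a description over genes that share arrays, and the difference was not tested.

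Other genes of protein synthesis were counted in the same way, to be read against all genes, of which 42.1% were above 0, 2.79% were higher and 4.96% lower at an unadjusted p under 0.05, and 0.855% were lower under 0.01. Among 14 mRNAs that encode no ribosomal protein but were listed as TOP mRNAs, 4 were above 0, with a median of -0.018, and 1, the histone chaperone Nap1l1, was lower under 0.05. The starts of these 14 were not examined for the tract. Translation factors among these 14 are counted again in the lists that follow. Of 32 initiation factors 9 were above 0 (median -0.038), 0 were higher and 5 (15.6%) lower under 0.05, and Eif3i, a subunit of the scaffold factor eIF3, was lower under 0.01 (-0.16 ± 0.05; limma, unadjusted p = 0.00754). Its log2 signal was 7.85, 7.77, 7.85 and 7.76 on the HDACI arrays, against 7.95, 8.04, 8.005 and 7.88 on the vehicle arrays, without overlap. Of 12 elongation and termination factors and genes listed with them, such as Eef2k and Eef1e1, 2 were above 0 (median -0.037). Abce1, which splits spent ribosomes, was the 1 lower under 0.05 (-0.13 ± 0.04; limma, unadjusted p = 0.0134).

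Genes that build the ribosome were counted next. Of 62 ribosome assembly genes 9 (14.5%) were above 0, against 42.1% of all genes, with a median of -0.045. Under 0.05, 0 were higher and 4 (6.45%) lower, near the 4.96% of all genes (Utp3, Riok1, Nol9 and Wdr12), and Utp3, a component of the small subunit processome, was lower under 0.01 (-0.17 ± 0.05; limma, unadjusted p = 0.00642). Utp3 had 7.85, 7.93, 7.86 and 7.98 on the HDACI arrays, against 8.12, 8.11, 7.98 and 8.08 on the vehicle arrays. HDACI array 4 and vehicle array 3 were nearly equal. RNA polymerase I and rDNA genes were split evenly, 8 of 16 above 0, with 0 under 0.05 in either direction (limma).

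Among 15 regulators of TOP mRNAs 7 were above 0, and 2 were lower under 0.05, the S6 kinase gene Rps6kb1 (-0.11 ± 0.04; limma, unadjusted p = 0.0222) and Rheb, the GTPase that switches on mTOR complex 1 (-0.11 ± 0.05; limma, unadjusted p = 0.0422). Rps6kb1 had 9.41, 9.36, 9.36 and 9.43 on the HDACI arrays, against 9.48, 9.50, 9.46 and 9.56 on the vehicle arrays, without overlap. The ribosomal proteins with other names lay on the side of the members, Fau at 0.072 and Rack1 at 0.091, neither under 0.05. The ribosome of mitochondria, built from a separate family of proteins, had 27 of 68 genes above 0 (39.7%) and a median of -0.022, the nuclear genes of the respiratory chain 32 of 72 and -0.015, and the proteasome 10 of 39 and -0.044. In none of these lists did a gene pass adjustment.

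All 17 measured genes of human Diamond-Blackfan anaemia were above 0, with a median of 0.092, as was the case for 91.9% of all members, and 5 (29.4%) were higher under 0.05 (Rps19, Rps10, Rpl35a, Rpl18 and Rps26), against 18.9% of all members and 2.79% of all genes. Among the 17, Rps27 was all but at 0, at 0.0036 ± 0.15, with a log2 signal of only 6.38 in both groups. All 7 tunnel exit proteins were above 0, with a median of 0.072 and none under 0.05. Of these, Rpl22 was at 0.0011 ± 0.049 and took the other sign under some alternatives.

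The arrays were alike, with correlations across probe sets of 0.993 to 0.997 and medians of 7.95 to 7.98 on the log2 scale. The mean log2 signal per array of the markers measured was 11.5 to 11.8 for neurons, 11.7 to 11.9 for astrocytes and 12.3 to 12.5 for oligodendrocytes. Some marker lists moved with the members. The mean of 8 microglial genes was 10.16, 10.38, 10.11 and 10.28 on the HDACI arrays, against 10.38, 10.26, 9.99 and 10.003 on the vehicle arrays, so that HDACI arrays 2 and 4 and vehicle array 1 were the 3 highest and vehicle arrays 3 and 4 the lowest, as they were for the small subunit mean. Of those genes 7 were above 0 and 0 passed 0.05 (limma). The order was not particular to microglia. For astrocyte genes HDACI arrays 2 and 4 and vehicle array 1 were again highest (11.86 to 11.89), and vehicle arrays 3 and 4 lowest (11.74 and 11.77). For oligodendrocyte genes those arrays were also highest (12.43 to 12.46), with vehicle array 4 lowest at 12.30 and HDACI array 1 next at 12.32. All 7 macrophage genes were above 0, with a list mean of 7.65 to 8.07 on the HDACI arrays, against 7.62 to 7.79 on the vehicle arrays. Under 0.05, 2 of them (28.6%) were higher, against 2.79% of all genes (limma). F13a1 was higher under 0.01 (0.54 ± 0.15; limma, unadjusted p = 0.00557). Of 10 neuronal genes 9 were below 0, with a list mean of 11.53 to 11.74 on the HDACI arrays, against 11.70 to 11.82 on the vehicle arrays. Under 0.05, 1 neuronal gene (10%) was lower, against 4.96% of all genes (limma). Astrocyte genes were above 0 in 7 of 8 cases, endothelial genes in 6 of 7, leptomeningeal genes in 5 of 8 and red cell genes in 5 of 5, with 0 under 0.05 in each list (limma). Oligodendrocyte genes were above 0 in 4 of 7 cases, ependymal genes in 0 of 5 and Schwann cell genes in 0 of 3, again with 0 under 0.05 (limma). The Schwann cell mean varied widely in both groups, from 8.80 to 10.37 on the HDACI arrays and from 8.73 to 10.35 on the vehicle arrays. HDACI array 2, without which the count of members under 0.01 was 1, had the highest mean of all 8 arrays for macrophage genes (8.07) and for red cell, leptomeningeal and endothelial genes. It was also highest for oligodendrocyte genes (12.46) and Schwann cell genes (10.37). For neuronal genes HDACI array 2 was lowest, at 11.53, against 11.63 to 11.82 on the other arrays. Its mean for red cell genes was 8.48, against 6.81 to 7.40 for HDACI arrays 1, 3 and 4 and 6.67 to 7.75 for the vehicle arrays. For leptomeningeal genes it was 9.73, against 8.56 to 8.99 for HDACI arrays 1, 3 and 4 and 8.69 to 9.34 for the vehicle arrays, and for endothelial genes 9.39, against 9.06 to 9.22 and 9.10 to 9.18 in the same order. The part of these cell types in the ribosomal protein result was not tested.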

How the data were processed

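Total RNA was hybridized to Affymetrix Rat Gene 1.0 ST arrays. The authors preprocessed them in R with oligo and normalized by RMA (background correction, quantile normalization between arrays, 1 summary per probe set), and the deposited values are log2 signals. They took annotation from Ensembl v70 through biomaRt, with package versions not given in the sources used here. Precision is limited by how many arrays there were.

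Symbols came from the platform annotation and were checked by Entrez number against RefSeq (73 of 75 member numbers matched, no name changed). Only probe sets with 1 symbol were used (323 had several and 13581 were not listed). Values were averaged per gene and fitted over all 14506 genes in R 4.3.3 by limma 3.58.1 (lmFit, then eBayes), with no filter, block or weights. All p values are two-sided, adjusted p values are Benjamini-Hochberg values, and SEs are those of the fit. An exact permutation test used all 70 assignments of the arrays. The scripts were first tested on simulated data. The members, gene lists and tests were chosen with earlier results of these data known.

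Genes named are all members under an unadjusted p of 0.01, the 10 highest and 10 lowest changes, genes whose probe sets differ in sign, the stalk, the 5S particle, Rps6 and paralogs, and up to 4 genes per other list with the smallest p. Any other gene was picked with its values in view or belongs to a counted list. Alternatives covered the variance model, signal filters, normalization, the value per gene, membership, array weights, a replicate block and single arrays left out.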

Additional observations from a re-analysis of the deposited data

Results flagged for a closer look

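The 4 arrays of a group were searched for a value far from the other 3 in 68 sets of values, and chance marks about 1 in 20 such sets, so 4 are near what chance gives. In Rpl23, HDACI array 2 was at 9.33, above the other HDACI arrays at 9.20 to 9.22. In Rps15, HDACI array 1 was at 11.83, below the others at 11.91. Vehicle array 4 lay below the other vehicle arrays in Rpl36, at 11.41 against 11.56 to 11.58, and in Rpl31, at 11.84 against 11.97 to 11.98.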

How the results depend on the processing

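Over 24 alternatives, the medians of the members, of the large subunit and of the small subunit stayed above 0, the count of members lower at an unadjusted p under 0.01 stayed at 0, and 58 to 68 of the 74 members were above 0 wherever all were kept. The count higher under 0.01 was 13 with probe sets in place of genes (of 262), 2 with the replicate block and 1 without HDACI array 2 and vehicle array 4, a choice made after seeing the data, and 1 to 4 with single arrays left out. The count without overlap was 69 with probe sets and 16 to 26 with single arrays left out. Except with probe sets, the shares of all genes under 0.01 or without overlap were not counted under these alternatives. The counts there are thus not set against a background. With single arrays left out the median was 0.047 to 0.085 over all members, 0.048 to 0.073 in the large and 0.044 to 0.11 in the small subunit, the mean of the large minus the small was -0.029 to 0.0043, and the lower count was 0 each time. The replicate numbers share only a number: arrays with the same number had correlations of -0.27, 0.36, 0.036 and 0.056 between their deviations from the group means.

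Changes near 0 took the other sign, and the cause was not tested. Further quantile normalization gave -0.019 for Rpl28, -0.0039 for Rpl38 and -0.0027 for Rpl4. Centring on array medians gave -0.00019 for Rpl22, -0.00076 for Rpl28, -0.00073 for Rpl38 and -0.0012 for Rpl4. The probe set with the highest mean gave -0.014 for Rpl22, -0.0075 for Rpl38, -0.020 for Rpl4, -0.0055 for Rpl41, -0.0017 for Rpl5 and -0.0046 for Rps3. Array quality weights gave -0.019 for Rpl22, -0.0024 for Rpl28, -0.0013 for Rpl38 and -0.025 for Rpl41. Leaving out HDACI array 2 and vehicle array 4 gave -0.049 for Rpl22, -0.0095 for Rpl28, 0.0066 for Rpl3, -0.010 for Rpl41 and -0.045 for Rps3. With single arrays left out the ranges were -0.0093 to 0.0094 for Rpl13a, -0.0084 to 0.033 for Rpl21, -0.025 to 0.022 for Rpl22, -0.013 to 0.028 for Rpl28, -0.016 to 0.0078 for Rpl3, -0.0078 to 0.015 for Rpl38, -0.031 to 0.038 for Rpl4, -0.030 to 0.053 for Rpl41, -0.041 to 0.0078 for Rps2 and -0.0039 to 0.15 for Rps3. The SE of a member's change had a median of 0.048, against a median change of 0.071.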
